A study of Mus musculus with 7 samples.

Results

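iHep 4α2 is 1 of 3 types of induced hepatocyte-like cells (iHep) that were made from C57BL/6 mouse embryonic fibroblasts (MEF), and it was compared here with the other types, 4α1 and 4α3. It was 1 array of 7 in the series. The other arrays were 1 for each of the other types, 3 for MEF prepared from embryos at 13.5 days post coitum, and 1 for hepatocytes of adult C57BL/6 liver. The study is known to have converted fibroblasts with Hnf4a together with Foxa1, Foxa2 or Foxa3; the labels do not spell out which factors each type carries, nor whether a type is a clone, a line or a pool. All 3 iHep arrays and the first MEF array shared a slide, while the hepatocyte array and the other MEF arrays lay on other slides. With 1 array per type, no difference between types has a replicate check, no result rests on a p-value for one, and each value describes these arrays.

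RNA was labelled with Cy3 and hybridised to 1-colour Agilent whole-genome arrays. A level here is log2 of a probe's processed signal minus the 75th percentile of its array; at level 0 a probe sits at that percentile. That percentile was a signal of 902 for 4α2, 763 for 4α1 and 829 for 4α3, within 624 to 1583 over all arrays. Between 60.2% and 68.7% of probes on an array were well above background. The difference between the second and the third MEF array was within that of repeated spots, so they were averaged and counted as 1 sample, so MEF means rest on 2 samples. Of the 27577 genes with a usable probe, 18126 were well above background on at least 1 iHep array and are called measured.

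Hepatocytes make most of the proteins of blood plasma, detoxify foreign compounds with cytochrome P450 enzymes and clear nitrogen through the urea cycle. Hnf4a, a nuclear receptor, and the Foxa pioneer factors are known to help set up this programme in the fetal liver, where Afp, the fetal counterpart of albumin, is made in quantity. Fibroblasts instead make collagens and other matrix proteins, and silence most of these liver genes.

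A gene was called higher in 4α2 when its level was over 4-fold above both other types, and lower when it was over 4-fold below both. A level that was not well above background was raised to the lowest one on its array that was, so a fold against such a level is given as "at least". By these rules 191 genes were higher, 1.05% of those measured, and 35 were lower, or 0.193%. Against 4α1 alone 279 genes were over 4-fold higher (1.54%) and 197 lower (1.09%), and against 4α3 alone 640 were higher (3.53%) and 281 lower (1.55%). The same rule applied to the other types gave 131 genes above both (0.723%) and 44 below both (0.243%) for 4α1, and 165 above (0.91%) and 239 below (1.32%) for 4α3. Between the first MEF array and the mean of the other MEF arrays, 142 genes were over 4-fold apart in either direction (0.783%). A difference of this size thus arises between MEF arrays as well. That comparison sets 1 array against a mean in both directions and not 1 array against each of a pair. It also crosses slides, which the comparison of iHep types does not. A difference between slides and one between MEF samples cannot be told apart there.

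Of the 191 higher genes, 96 were well above background on all 3 iHep arrays, so that both of their folds are measured, and 60 were at background in both other types. The smaller of the pair of differences was over 8-fold for 71 of them and over 16-fold for 15. Among the 35 lower genes 7 were over 8-fold apart, none was over 16-fold, and 7 were at background in 4α2. The technical SD of a log2 difference, taken from 245 probes with 10 spots each, ran from 0.0685 to 0.477 over these genes by signal. That SD covers the spotting and scanning of an array, not the spread between cultures. Of the 40 higher genes with another detected probe, 38 had all such probes on the same side, as did 9 of the 11 lower ones. At the edge of the rule, 16 higher genes passed by less than 0.1 on the log2 scale, with Rec8 lowest at 4.02-fold, and 19 genes missed by less than 0.1, with Napsa nearest. With another background correction (normexp with an offset of 50), which raises dim signals, 65 genes were higher and 8 lower, all of them among the 191 and the 35.

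**Figure D1:**
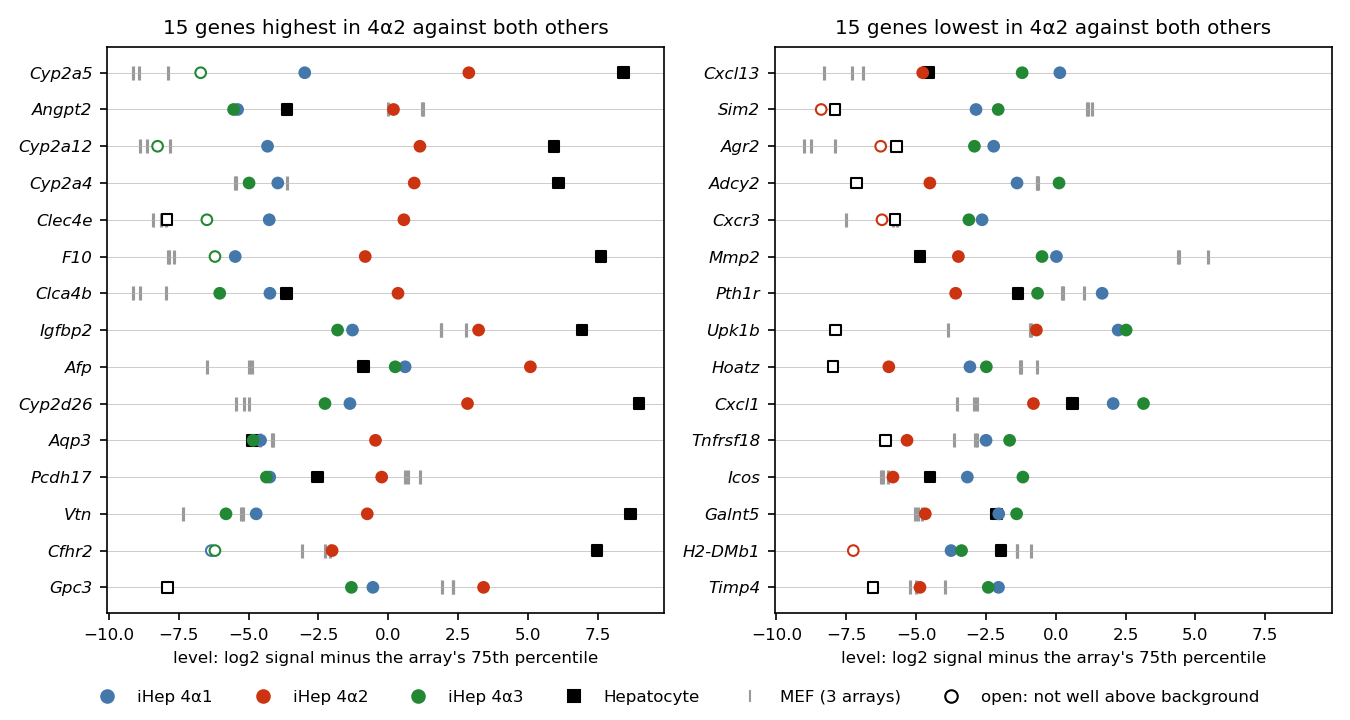
Levels (log2 signal minus the array's 75th percentile, horizontal axis) of the 15 named genes furthest above and the 15 furthest below both other types in 4α2. Each point is 1 array, the grey ticks are the 3 MEF arrays, and open symbols of iHep and hepatocytes mark levels not well above background. The 4α2 point of Afp at 5.09 lies to the right of all other arrays, and that of Cxcl13 at -4.76 lies to the left of both other iHep types.

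The higher genes held more genes of the hepatocyte direction than all measured genes did. A gene of that direction need not be a liver gene, and Sftpa1, Sftpd and Car1 are among those counted. Of the 191, 96 (50.3%) were over 4-fold higher in hepatocytes than in MEF, against 2620 of all measured genes (14.5%). The opposite direction, over 4-fold lower in hepatocytes, held for 22 (11.5%) against 2762 of all measured genes (15.2%). Among genes above both other types in 4α1 the share higher in hepatocytes was 14.5%, and in 4α3 it was 23.6%. The median level of the 191 genes was -1.76 in 4α2, -5.07 in 4α1, -5.78 in 4α3, -5.98 in MEF and -2.57 in hepatocytes, background levels taken at their bound. The hepatocyte level was above that of 4α2 for 85 of them and over 4-fold above it for 69. A further 40 genes were well above background on neither the hepatocyte array nor any MEF array, or 20.9% of the higher genes against 3.57% of all measured genes. For genes above both other types in 4α1 that share was 32.8%, and in 4α3 it was 18.8%. A gene at background in both other types counts as measured through 4α2 alone, so the filter itself can raise this share. Among the 35 lower genes, 13 (37.1%) were over 4-fold lower in hepatocytes than in MEF and 5 were over 4-fold higher.

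**Figure D2:**
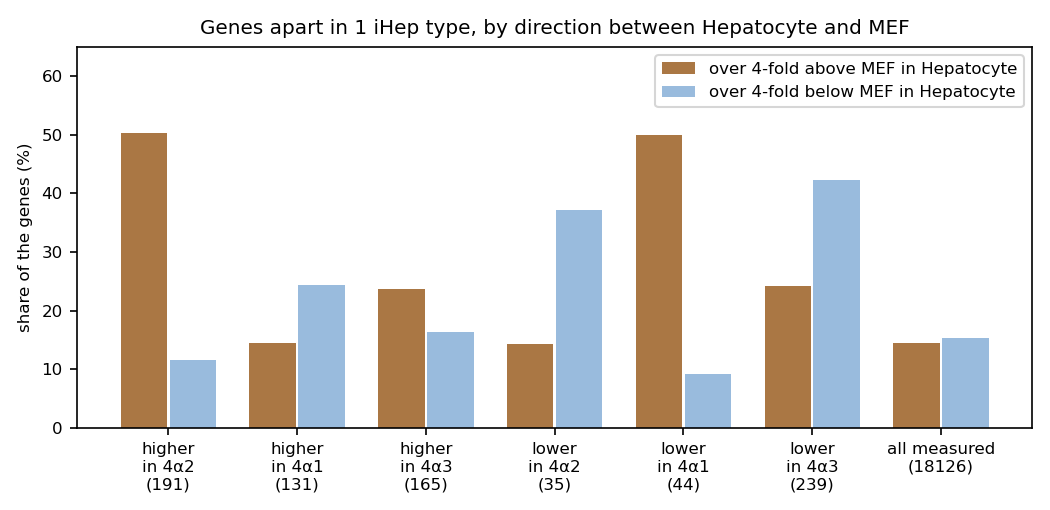
Share of genes (vertical axis, %) that were over 4-fold above or over 4-fold below MEF on the hepatocyte array, for the genes above or below both other types in each iHep type and for all measured genes, with the number of genes in parentheses. The share above MEF was 50.3% for genes higher in 4α2 and 14.5% for all measured genes.

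Hepatocyte genes as a whole did not set 4α2 apart. Each type was placed between MEF (0) and hepatocytes (1) on every gene over 4-fold apart between those references. Over 3241 genes higher in hepatocytes the median position was 0.119 for 4α2, 0.109 for 4α1 and 0.092 for 4α3. Over 2932 genes lower in hepatocytes it was 0.292 for 4α2, between 0.260 for 4α1 and 0.337 for 4α3. The positions of the MEF samples themselves had an SD of 0.038 on the first set and 0.0035 on the second (n = 2). Genes at background take the bound of their array. That bound was -5.82, -6.90 and -6.68 on the MEF arrays and -5.97, -6.21 and -6.24 on those of 4α1, 4α2 and 4α3. These bounds enter both the SD and the positions, so the SD is no clean measure of the spread between cultures. On the first set the differences between types were smaller than that SD, which cannot place them within such a spread. The order on the first set changed with the setting. 4α1 lay furthest towards hepatocytes with quantile scaling (0.142 against 0.126 for 4α2), in the authors' value table (0.140 against 0.127), without MEF 1 (0.194 against 0.188), without MEF 3 (0.125 against 0.120) and with the 3 MEF arrays as separate samples (0.138 against 0.123). 4α2 lay furthest with MEF 1 alone (0.136 against 0.0723 for 4α1), without MEF 2 (0.112 against 0.0994), over genes 8-fold apart (0.131 against 0.0902) and with centring (0.109 against 0.105). On the second set 4α3 lay furthest in every one of these settings.

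Afp, fetal albumin, is among the genes that best set 4α2 apart. Its level was 0.61 in 4α1, 5.09 in 4α2 and 0.25 in 4α3, against -6.50, -4.88 and -5.00 on the MEF arrays and -0.89 in adult hepatocytes. The 4α2 array was thus the highest of all 7, 22.4-fold above 4α1 and 28.7-fold above 4α3. Alb, adult serum albumin, had levels of 6.36, 7.83 and -0.29 in 4α1, 4α2 and 4α3, so it set 4α3 apart rather than 4α2 and did not meet the rule. Afm and Gc, relatives of albumin, did meet it from a dim level. Afm, afamin, a carrier of vitamin E, had a level of -2.43 in 4α2 and was not well above background in 4α1 or 4α3, at least 11.6-fold lower in each, against 7.29 in hepatocytes. Gc, the vitamin D binding protein, had -2.93 in 4α2 and was not well above background in the others, at least 7.44-fold and 9.96-fold lower there, against 8.55 in hepatocytes. Igfbp1, a binding protein of insulin-like growth factors made by liver, had -2.01 in 4α2 and was at background in the others, at least 15.6-fold and 18.8-fold lower.

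Afp, Afm, Gc and Igfbp1 were put together here because their promoters hold the same letters. The 250 bases before the start site are shown for these 4 genes. The letters GTTAAT, then any base, then ATT were searched on both strands of the RefSeq promoters of GRCm38.p6, and capitals mark the match. All lines run 5′ to 3′ on the strand of the gene.
Afp, chr5:90490464-90490713, plus strand: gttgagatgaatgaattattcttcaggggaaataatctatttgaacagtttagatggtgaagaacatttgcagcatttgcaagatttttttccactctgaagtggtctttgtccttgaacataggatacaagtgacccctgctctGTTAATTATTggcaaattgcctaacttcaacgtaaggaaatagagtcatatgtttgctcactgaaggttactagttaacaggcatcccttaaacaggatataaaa
Afm, chr5:90518699-90518948, plus strand: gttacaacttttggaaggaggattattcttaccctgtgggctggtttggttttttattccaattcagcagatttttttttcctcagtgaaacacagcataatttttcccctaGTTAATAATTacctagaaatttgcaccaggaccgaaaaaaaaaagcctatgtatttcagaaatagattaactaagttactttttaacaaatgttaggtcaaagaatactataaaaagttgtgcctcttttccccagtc
Gc, chr5:89457899-89458148, minus strand: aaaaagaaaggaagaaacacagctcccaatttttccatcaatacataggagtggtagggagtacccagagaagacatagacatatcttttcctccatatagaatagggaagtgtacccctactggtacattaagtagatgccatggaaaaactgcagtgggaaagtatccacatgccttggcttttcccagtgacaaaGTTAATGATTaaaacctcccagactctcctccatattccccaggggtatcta
Igfbp1, chr11:7197537-7197786, plus strand: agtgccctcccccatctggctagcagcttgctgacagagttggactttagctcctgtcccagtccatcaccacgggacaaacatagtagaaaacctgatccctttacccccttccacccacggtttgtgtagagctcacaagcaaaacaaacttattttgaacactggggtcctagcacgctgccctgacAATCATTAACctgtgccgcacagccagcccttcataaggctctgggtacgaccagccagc
The match began 105 bases before the start of Afp, 138 before that of Afm, 52 before that of Gc and 60 before that of Igfbp1, where it lies on the opposite strand, as it does in Cfhr2. Cfhr2, a complement factor H related gene, was the only other higher gene with a match. Promoters were found for 130 of the 191 higher genes, and 5 of them held these letters (3.85%), against 37 of 11787 measured genes with a promoter (0.314%) and 122 of all 32851 promoters in the table (0.371%). Among genes over 4-fold higher in hepatocytes than MEF, it was 5 of 68 (7.35%) for those higher in 4α2 and 22 of 1528 (1.44%) for the others. Afp, Afm and Gc, 3 of the 5 genes in both counts, are of the albumin family, so the matches are not all independent. Afm, Gc, Igfbp1 and Cfhr2 were at background in both other types, so they count as measured through 4α2 alone. The letters were also chosen after values were seen, so these shares are descriptive only. A form of the HNF4 site, CAAAGTCCA, was in 5 of 130 (3.85%) against 0.492% of measured genes, 3 of them near-identical Cyp3a genes, and the FOXA letters TGTTTAC were in 10 (7.69%) against 2.91%, 4 of them of that Cyp3a family. The C/EBP letters TTGCGCAA were in none of 130 against 0.271%, and the CDX letters TTTATGG in 5 (3.85%) against 2.14%. The letters TATAAA were in 38 (29.2%) against 9.70%, and in 12.4% of all promoters in the table. They were counted anywhere in the window on either strand, so a match need not be a TATA box. None of the 25 lower genes with a promoter held the letters marked above or the HNF4, FOXA or C/EBP letters. The CDX letters were in 1 of them and TATAAA in 4. A match describes the letters in this window and is no evidence of binding.

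Among transcription factors of hepatocytes, Hnf4a itself was among the lower genes by its brightest probe, at -0.64 in 4α1, -2.67 in 4α2 and 1.48 in 4α3, 4.08-fold and 17.8-fold lower in 4α2, against 4.52 in hepatocytes and background in MEF. That probe lies at chr2:163263779-163263838 (mm8), and a second probe at chr2:163261770-163261829 gave -5.00, -5.45 and -3.23, also lowest in 4α2. Another probe at chr2:163244007-163244066 gave the opposite, -0.52, -0.33 and -2.18 in the same order, with 4α2 highest. The order of Hnf4a thus depends on the probe, and the labels do not say which probes read an introduced transcript. Foxa1 and Foxa2 were not well above background in 4α2, at -8.21 and -7.87, nor in 4α3, while 4α1 had -3.16 and -1.03. Foxa3 was at background in all 3 iHep types. Each of these Foxa genes had 1 usable probe, and whether it reads an introduced transcript is not known. Of 51 measured hepatocyte transcription factors, Mlxipl, which drives fat synthesis from glucose, was the only 1 above both, at -2.31, 1.27 and -2.61 in 4α1, 4α2 and 4α3 (14.8-fold over 4α3). The list median was -0.06 against 4α1 and -0.19 against 4α3, where all measured genes had -0.05 and -0.02. Onecut1 and Onecut2, factors of bile duct and early liver, set 4α3 apart, at 0.08 and 1.87 there against -5.26 and -3.60 in 4α2.

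Secreted plasma proteins leaned towards 4α2. Of 48 measured genes, 9 were above both other types and none below, 35 were highest in 4α2, and the median difference was 0.99 from 4α1 and 1.72 from 4α3. Over all measured genes, 5189 of 18126 were highest in 4α2. Apoe, the ligand by which liver clears remnant lipoproteins, had levels of 4.68, 7.66 and 3.89 in 4α1, 4α2 and 4α3, so 4α2 was 7.93-fold and 13.7-fold higher. The MEF arrays had 4.19, 4.97 and 4.97, all under 4α2, and hepatocytes had 9.83. Trf, transferrin, had 4.10, 7.96 and 4.70 (14.5-fold and 9.63-fold), with -2.55, -1.80 and -1.80 on the MEF arrays and 9.40 in hepatocytes. Apob, the scaffold of very low density lipoprotein, had 0.86, 3.31 and -0.83 (5.47-fold and 17.7-fold), with MEF at background. Vtn, vitronectin, was 15.7-fold and 33.3-fold higher in 4α2, at -0.75, but hepatocytes had 8.67. Members of the list that did not pass include Apoa1, which builds high density lipoprotein, at 7.25, 7.16 and 5.58, and Ttr, a thyroid hormone carrier, at -1.18, -1.25 and -4.14.

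Some clotting factors made by liver were among the higher genes. Of 33 coagulation and complement genes, 6 were above both types and none below, with median differences of 0.39 and 0.99. F10, factor X, had -5.48 in 4α1 and -0.82 in 4α2 (25.2-fold) and was at background in 4α3 (at least 41.6-fold). F11, factor XI, had -1.75, 1.43 and -3.81 (9.11-fold and 37.8-fold), and Proz, protein Z, had 0.76, 3.44 and 1.04 (6.43-fold and 5.31-fold). Fgg, the gamma chain of fibrinogen, was 4.66-fold and 25.4-fold higher. The other fibrinogen chains did not pass. Fgb was high in all types at 7.29, 8.04 and 7.04, and Fga was well above background in 4α2 alone among the iHep arrays, at -4.77. Cfi, complement factor I, went the other way against 4α3, at -4.04, -4.71 and -1.87.

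Cytochrome P450 and other phase I enzymes held the most genes apart. Of 74 measured, 16 were above both other types, 1 was below both, 47 were highest in 4α2, and the median difference was 0.69 from each. All 16 were over 4-fold higher in hepatocytes than in MEF, as were 63 of the 74 on the list. Cyp2a5, which hydroxylates coumarin and nicotine, had -2.99 in 4α1 and 2.89 in 4α2, 58.7-fold apart, and was at background in 4α3, at least 561-fold lower. Hepatocytes had 8.43 and no MEF array was above background. Cyp2a12, a bile acid hydroxylase, had -4.32 and 1.14 in 4α1 and 4α2 (43.9-fold) and was at background in 4α3. Cyp2d26 had -1.37, 2.84 and -2.26 (18.5-fold and 34.4-fold). Cyp3a11, a main drug-oxidising enzyme of mouse liver, had -3.69, -0.13 and -3.20 (11.8-fold and 8.38-fold) against 8.31 in hepatocytes. Cyp2f2, an enzyme of liver and airway club cells, had -1.12, 2.82 and -5.04 (15.3-fold and 231-fold). Adh7, the alcohol dehydrogenase of stomach, was the 1 gene below both, at -1.37, -5.79 and -3.68. No iHep type had Cyp7a1, which commits cholesterol to bile acids, above background. Cyp2a4, next to Cyp2a5 in sequence, had -3.95, 0.93 and -4.98 (29.5-fold and 60.3-fold). Of 38 phase II enzymes, which attach groups that make compounds soluble, 2 were above both (Gstt1 and Gstt2), and of 34 bile acid genes and hepatic transporters 1 was (Slc51a). Genes of the Cyp2a, Cyp2d and Cyp3a families, Ces1c and Mup4 are near-identical to their relatives, so signal could be shared between probes and the member that gave it is uncertain.

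**Figure D3:**
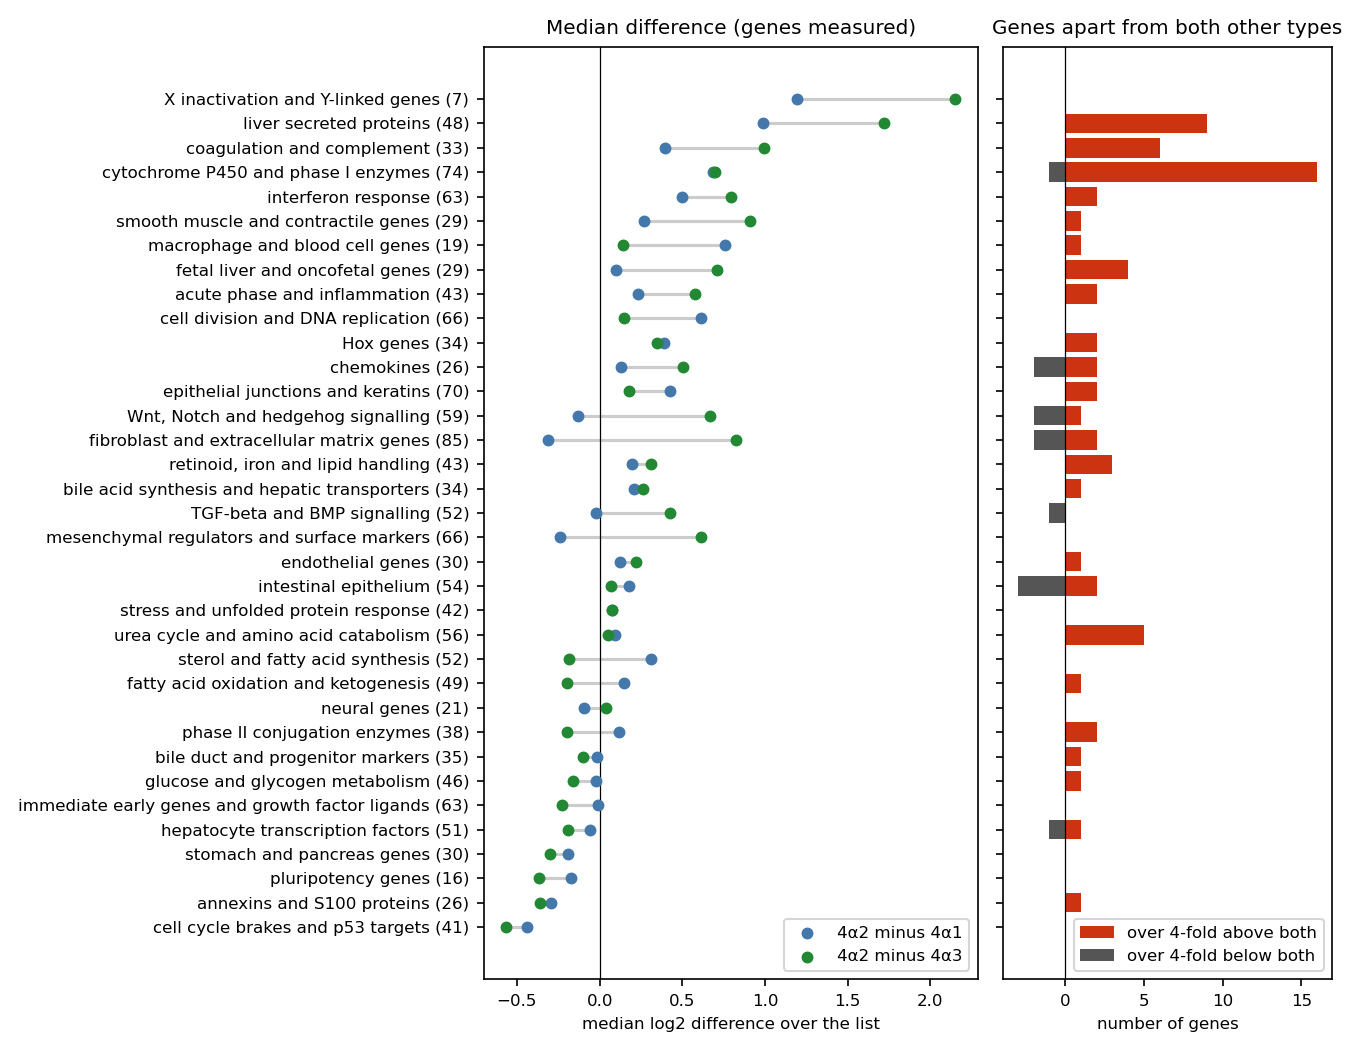
Left, median log2 difference of 4α2 from 4α1 (blue) and from 4α3 (green) over each of 35 gene lists, with the number of measured genes in parentheses. Right, number of genes over 4-fold above both types (to the right) or below both (to the left). The 74 cytochrome P450 and phase I genes hold 16 genes above both and 1 below, and the 66 cell division genes hold none.

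Enzymes of nitrogen and amino acid metabolism gave a mixed picture. Of 56 measured, 5 were above both types and none below, and the median differences of 0.09 and 0.05 were close to those of all genes. Cdo1, which oxidises cysteine, had 0.54, 3.70 and -0.85 in 4α1, 4α2 and 4α3 (8.90-fold and 23.3-fold). Nags, which makes the activator of the urea cycle, was at background in 4α1 (at least 10.9-fold lower) and 9.73-fold lower in 4α3 than the -2.52 of 4α2. Mat1a, the liver methionine adenosyltransferase, Hal, which breaks down histidine, and Hgd, of tyrosine breakdown, were well above background in 4α2 alone among the iHep arrays, at -3.64, -3.38 and -3.15, against 6.67, 6.59 and 5.41 in hepatocytes. Cps1, the first enzyme of the cycle, was at background in 4α1, -2.54 in 4α2 and -4.38 in 4α3, short of 4-fold from 4α3. Arg1, the last enzyme, went the other way from 4α1, at -2.85 there and -5.47 in 4α2, and Tat, which starts tyrosine breakdown, had -0.37, -2.66 and -0.95.

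None of 52 genes of sterol and fatty acid synthesis was over 4-fold from both types in either direction. Tfr2, an iron sensor of hepatocytes, had -5.26, -1.56 and -6.09 (12.9-fold and 23.1-fold).

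Some of the higher genes are fetal or are known from organs other than liver. Of 29 measured fetal liver and oncofetal genes 4 were above both, namely Afp, Gpc3, Grb10 and Bex1, and the median differences were 0.10 and 0.71. Gpc3, glypican 3, a proteoglycan of fetal liver and liver tumours, had -0.55, 3.41 and -1.32 (15.6-fold and 26.6-fold), with 1.94, 2.33 and 2.33 in MEF and background in hepatocytes. Grb10, an imprinted adaptor that restrains growth, had -1.90, 1.31 and -1.50 (9.26-fold and 7.01-fold) but stayed under its MEF levels of 5.05, 5.57 and 5.59. Dlk1, H19 and Igf2, fetal genes too, did not pass. Igf2 was 6.32, 6.31 and 6.19 in the 3 types. Sftpd and Sftpa1, surfactant proteins of lung, were higher in 4α2, with Sftpd at -0.68, 2.91 and -4.87 (12.1-fold and 220-fold) and Sftpa1 at -4.69, -1.17 and -5.74 (11.5-fold and 23.8-fold). Both were at background in MEF but well above background in hepatocytes, at -4.16 for Sftpd and -2.33 for Sftpa1. Both are therefore among the 96 higher genes over 4-fold above MEF in hepatocytes. Nkx2-1, a transcription factor of lung and thyroid, had -4.40, -1.41 and -4.43 (7.95-fold and 8.12-fold) and was at background on the hepatocyte and MEF arrays. These lung genes were noticed after their values were seen and are in no list.

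Several genes above both types were well expressed in MEF. Angpt2, a ligand of the vessel receptor Tie2, had -5.39, 0.19 and -5.54 in 4α1, 4α2 and 4α3 (47.9-fold and 52.9-fold), with -0.01, 1.22 and 1.24 in MEF. Pcdh17, a protocadherin, had -4.24, -0.23 and -4.36 with 1.14, 0.73 and 0.60 in MEF, and Dkk2, a Wnt antagonist, was -2.11 in 4α2 and at background in both other types with 2.08, 1.67 and 1.64 in MEF. Igfbp2, a growth factor binding protein of fibroblasts and liver alike, had -1.28, 3.24 and -1.81 (22.9-fold and 33.1-fold), with 2.78, 1.88 and 1.88 in MEF. Hoxd13 and Hoxd10, patterning genes of the limb bud, were both above both types, and Hoxd11 between them missed the rule, at -5.90, -3.93 and -8.55. Hoxd13 was well above background in 4α2 alone among the iHep arrays, at -2.71, against 2.76, 0.28 and 0.25 in MEF. The 34 Hox genes measured had medians of 0.39 and 0.34, and 20 were highest in 4α2. Of the 191 genes 16 (8.38%) were within 2-fold of the MEF mean in 4α2, and 149 (78.0%) were over 4-fold above it. Over all measured genes these shares were 70.7% and 7.30%. The 191 were chosen by a high level in 4α2, which these shares use again.

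Some of the higher genes were neighbours. Counting runs of at least 3 higher genes with under 500000 bases from each to the next, 26 of the 191 lay in 7 runs, on the array's mm8 positions. The rule gave 1 run of 4 genes among the 131 genes above both types in 4α1 and 2 runs with 6 genes among the 165 of 4α3. On chr8:13035264-13075919 F7, F10 and Proz, all clotting genes, were 3 of 3 measured genes. On chr7:18830090-18854964 Apoc2, Apoc1 and Apoe were 3 of 4. On chr5:91583955-91845203 Afp, Afm and the platelet chemokine Ppbp were 3 of 5. On chr14:39902463-40081012 Prxl2a, a redox protein, Mat1a, Sftpa1 and Sftpd were 4 of 4, although Mat1a is an enzyme of hepatocytes and the surfactant genes are of lung. The other runs were families of near-identical P450 genes: 5 of 9 on chr15:82201711-82617970 (Cyp2d), 4 of 4 on chr5:145689932-146166583 (Cyp3a) and 4 of 5 on chr7:26551910-26842370 (Cyp2a with Cyp2f2). Duplicated genes of 1 kind lie beside each other, and shared signal between their probes was not tested.

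**Figure D4:**
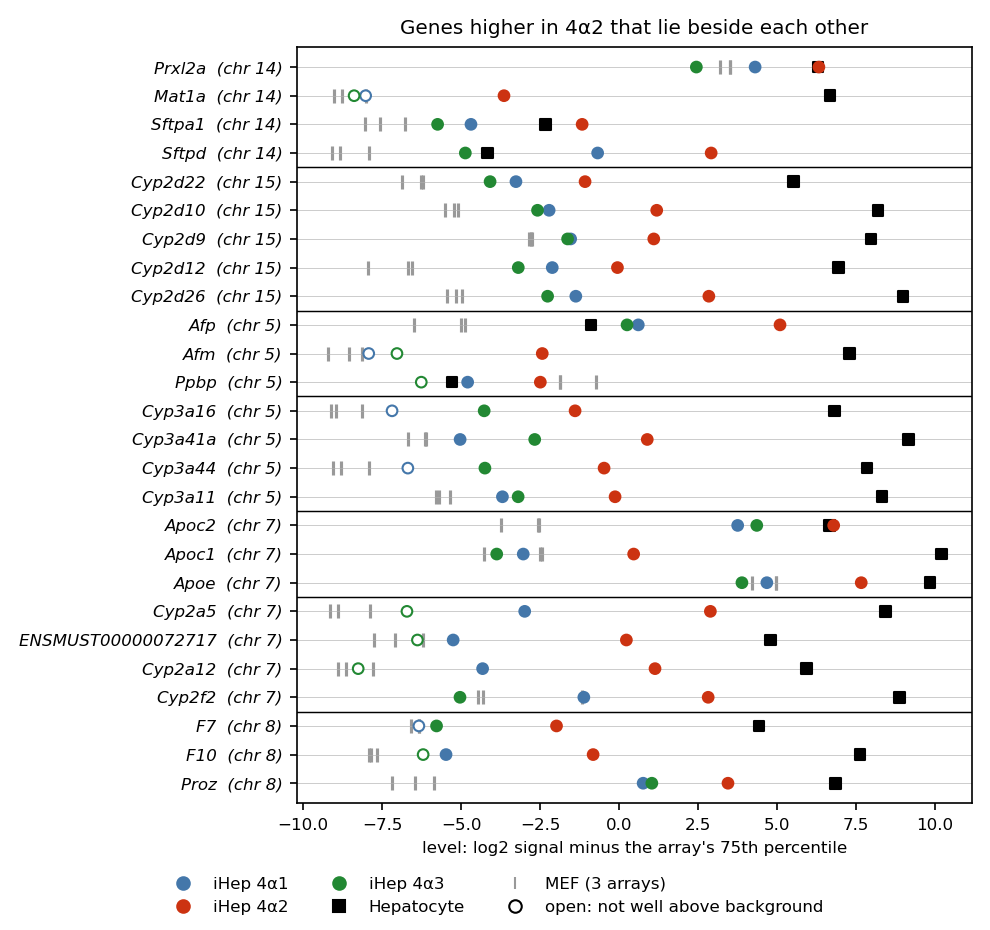
Levels (log2 signal minus the array's 75th percentile, horizontal axis) of the 26 genes higher in 4α2 that lie in 7 runs of neighbours, with a line between runs. Each point is 1 array and open symbols of iHep and hepatocytes mark levels not well above background. In all 26 the red 4α2 point lies to the right of both other types, as the rule requires, and the hepatocyte square lies to the left of it for Afp, Ppbp, Sftpa1, Sftpd, Apoc2 and Prxl2a.

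Genes lower in 4α2 were fewer and of mixed kinds. Cxcl13, a chemokine that attracts B cells, had levels of 0.15 in 4α1, -4.76 in 4α2 and -1.20 in 4α3, 30.1-fold and 11.8-fold lower in 4α2, with MEF at background. Cxcl1, which attracts neutrophils, had 2.06, -0.80 and 3.14 (7.23-fold and 15.4-fold lower), still above its MEF levels of -3.53, -2.94 and -2.83. Cxcl10, an interferon-induced chemokine, ran against them at 0.24, 2.85 and -0.80, 6.11-fold and 12.6-fold higher in 4α2. Of 26 chemokines, 2 were above and 2 below both types. Mmp2, a collagenase of fibroblasts, had 0.03, -3.48 and -0.49 (11.4-fold and 7.97-fold lower), under its MEF levels of 5.45, 4.38 and 4.42 and near the hepatocyte level of -4.85. Mfap2 and Ltbp2, proteins of elastic microfibrils, were lower as well, at -2.16 and 0.73 in 4α2. Sim2, a transcription factor, was at background in 4α2, at least 10.2-fold under 4α1 and 17.7-fold under 4α3, and had 1.30, 1.17 and 1.12 in MEF. Pth1r, the receptor of parathyroid hormone, had 1.66, -3.58 and -0.65 (37.9-fold and 7.64-fold). Agr2, Spink4 and Retnlb, secretory genes of intestine, were lowest in 4α2: Agr2 had -2.22 and -2.91 in 4α1 and 4α3 and was at background in 4α2. The intestinal list as a whole did not lean this way. Of its 54 measured genes, 22 were highest in 4α2 and 16 lowest, with 2 above both types and 3 below.

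Fibroblast genes as a group separated 4α3 rather than 4α2. Over 85 fibroblast and matrix genes the median difference of 4α2 was -0.31 from 4α1 and 0.82 from 4α3, with 2 genes above both (Col14a1 and Spon1) and 2 below (Mmp2 and Mfap2). Col1a1, a chain of type I collagen, had 5.11, 5.36 and 3.93 in 4α1, 4α2 and 4α3, and Vim, the mesenchymal intermediate filament, had 5.67, 5.60 and 5.45. Thy1, a surface marker of fibroblasts, was lowest in 4α2, at 1.89, -2.74 and -0.87, but short of 4-fold from 4α3. Its MEF levels were 5.83, 6.59 and 6.49. Cdh1, E-cadherin, had 4.53, 4.50 and 5.12 and was at background in MEF. Against lists of other cells, all 10 fibroblast markers and all 7 bile duct markers were well above background in 4α2, as were 8 of 9 hepatocyte markers, 4 of 6 macrophage markers, 5 of 7 intestinal, 5 of 6 stomach and 4 of 5 smooth muscle markers, and none of 5 endothelial or 4 pluripotency markers. These counts were close in 4α1 and 4α3, with 10 and 10 fibroblast, 7 and 6 bile duct and 7 and 8 hepatocyte markers. The MEF arrays had 6, 5 and 5 of the bile duct markers. The summed hepatocyte markers, on the log2 scale of levels, were 8.26 in 4α1, 9.13 in 4α2 and 5.94 in 4α3. The summed bile duct markers were 7.71, 7.46 and 7.42, under the 8.20, 7.87 and 7.89 of the MEF arrays. The summed macrophage markers were 2.67, 3.96 and 3.81, all under the 5.98, 6.63 and 6.63 of the MEF arrays. In bulk RNA a larger share of cells and more RNA per cell cannot be told apart.

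Interferon genes moved by a small amount in most members. Of 63 measured, 50 were highest in 4α2, with medians of 0.50 from 4α1 and 0.79 from 4α3, yet only Rsad2 and Gbp4 were over 4-fold above both and none was below. Rsad2, an antiviral enzyme, had -1.58, 1.01 and -2.05 (6.04-fold and 8.33-fold). Ifit3 had 2.43, 4.00 and 0.48 and missed the rule against 4α1, with 2.02, 0.38 and 0.45 in MEF. Mx1 went the other way, at -0.80, -1.28 and -0.59. Cell division genes separated 4α1 rather than 4α2, with no gene past 4-fold. Of 66, 41 were highest in 4α2, 24 in 4α3 and 1 in 4α1. The median differences of 4α2 were 0.61 from 4α1 and 0.14 from 4α3. Against the first MEF array the list medians were -0.49 in 4α1, 0.09 in 4α2 and 0.14 in 4α3. Mki67, a marker of cycling cells, had 2.34, 3.10 and 3.03. Cell cycle brakes and p53 targets leaned lower in 4α2, with medians of -0.44 from 4α1 and -0.56 from 4α3. Of these 41 genes 23 were lowest in 4α2 and none was over 4-fold from both. Cdkn2a, the Ink4a/Arf locus, had 0.44, -2.23 and -0.97, and its neighbour Cdkn2b had 3.35, 0.56 and 1.19.

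Cdkn2a and Cdkn2b lie in a long stretch of chromosome 4 whose genes were slightly lower in 4α2. Over the 973 genes of chromosome 4 that were well above background in all types, the median difference of 4α2 was -0.14 from 4α1 and -0.23 from 4α3, the lowest of 20 chromosomes in both. Over all 15828 such genes it was -0.04 and -0.04. The 723 genes from 60 Mb onwards (mm8) had medians of -0.21 and -0.32, and 61.8% of them were lowest in 4α2. The 250 genes before 60 Mb had 0.06 and 0.04, and 26.4% were lowest in 4α2, against 35.8% of all genes with a position. Of 229 bins of 10 Mb with at least 20 genes, 8 had medians under -0.15 against both types, and all 8 were among the 9 such bins of chromosome 4 from 60 Mb on. The ninth had -0.15 and -0.24. In the whole genome 1 bin was over 0.15 against both. Against the first MEF array, on the same slide, genes from 60 Mb on had medians of -0.42 in 4α2, -0.24 in 4α1 and -0.12 in 4α3. The boundary at 60 Mb was set after the values were seen. Of the genes apart by the 4-fold rule, 5 of 191 higher and 3 of 35 lower genes lay there, against 811 of 18126 measured. DNA copy number was not measured, and its part in the shift was not tested.

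**Figure D5:**
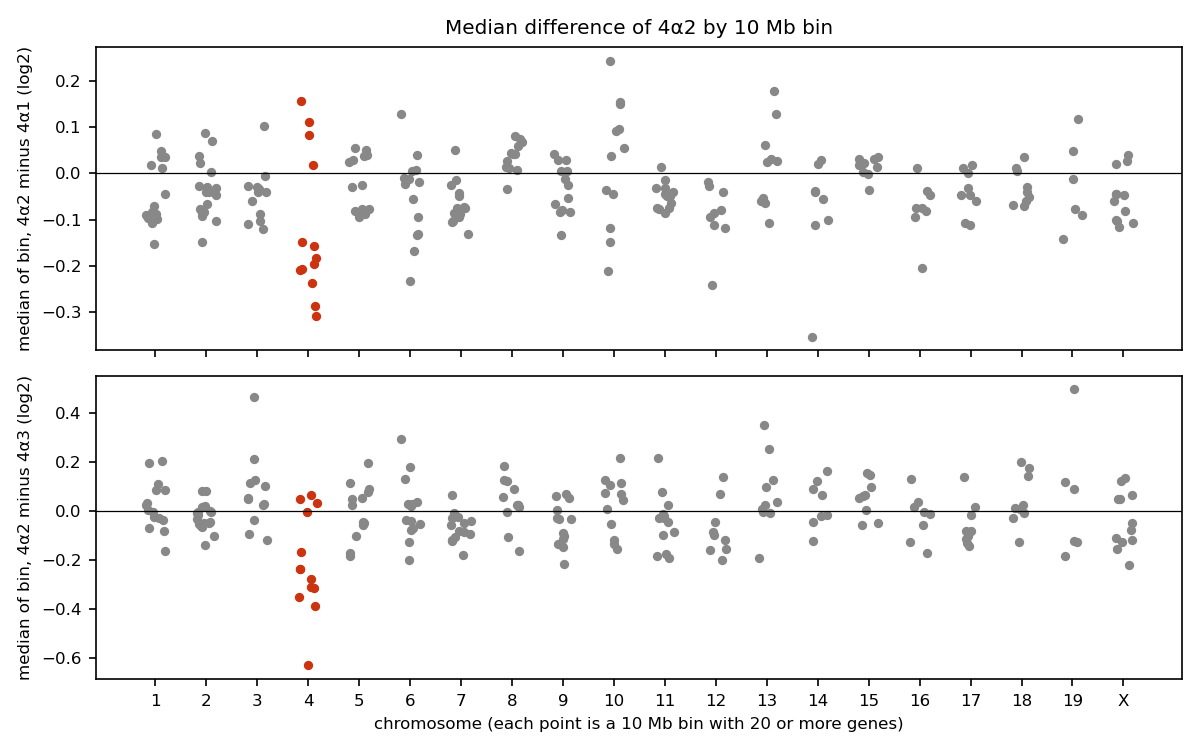
Median log2 difference of 4α2 from 4α1 (upper) and from 4α3 (lower) for each of 229 bins of 10 Mb with at least 20 genes well above background in all types, by chromosome. Points of chromosome 4 are red, and 9 of them, from 60 Mb on, lie between -0.15 and -0.31 in the upper panel and between -0.17 and -0.63 in the lower.

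The types also differed in genes that mark the sex of the source embryos. Xist, which silences an X chromosome in female cells, was at background in 4α1 and 4α2, with 3.34 in 4α3, 1.17, 1.68 and 1.78 in MEF and background in hepatocytes. Eif2s3y, on the Y chromosome, had 0.10, 1.46 and -2.05 in 4α1, 4α2 and 4α3, and Ddx3y had -0.90, 0.70 and -2.58. Both were highest in 4α2 among the iHep types and under the hepatocyte levels of 2.87 and 2.60. The 4α3 cells thus hold RNA of both Xist and Y genes, while 4α2 holds Y genes without Xist. The part of the sex of the cells in the differences between types was not tested.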

How the data were processed

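RNA of 7 samples was measured on 1-colour Agilent arrays, 1 per sample. Per the file headers, Agilent Feature Extraction 9.5.1.1 read the scans, subtracted background and removed trends across the array. Processed signals are linear intensity values, deposited without scaling between arrays. Mean and background signals, also deposited intensity values, served 1 alternative. Other deposited columns are flags for spots well above background, saturated or outlying. The authors' value table holds an intensity per probe, its 7 columns share 1 distribution, with the method not given in the labels. On the log2 scale it correlated with the scanner signals at r = 0.9988 to 0.9999 across probes.

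Of 43379 non-control spots, outliers (66 to 104 per array) were dropped and repeats averaged, leaving 41138 of 41174 probes. Levels are log2 minus the array's 75th percentile. RefSeq names of GRCm38.p6 were matched for 24496 probes by accession and 8620 by symbol, 7797 kept the scanner file's name, and 261 had none. The brightest probe stood for a gene. Positions are the array's own, build mm8, and exons and introns were not used here. MEF 2 and MEF 3 differed by 0.50 to 0.92 times what repeated spots predict, and MEF 1 and MEF 2 by 3.82 to 4.54 times. The number of arrays limits the precision.

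Genes named are the 15 furthest apart each way, up to 4 of each list that passed with 1 or 2 that did not, and 14 genes whatever their result; all others, the runs in other types, the motifs and the 60 Mb boundary were chosen after their values were seen. Of 10 hepatocyte markers 9 were found. Results on a few genes are not reported here. The members and the 35 lists were chosen with earlier results of these data known. Alternatives changed the fold, scaling, background correction, dim-probe filter, probe choice, outlier spots, values used and MEF arrays; 1 used limma 3.58.1 in R 4.3.3, tested on simulated data.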

Additional observations from a re-analysis of the deposited data

Results flagged for a closer look

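Cdo1, which oxidises cysteine, and Gpc3, a proteoglycan of fetal liver, moved in opposite directions from MEF in 4α2 and in the other types. The 4α2 level of Cdo1 was 1.56 above the MEF mean on the log2 scale, with differences of -1.59 in 4α1 and -2.98 in 4α3. Gpc3 was 1.28 above the MEF mean in 4α2, with differences of -2.69 in 4α1 and -3.46 in 4α3. Each side was over 2-fold from every MEF array. The difference in direction was not tested, since each type has 1 array.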

How the results depend on the processing

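The numbers of higher and lower genes followed the fold and the handling of dim signals. They were 650 and 215 at 2-fold, 71 and 7 at 8-fold, 65 and 8 with normexp, and 337 and 62 with neither filter nor bound. Requiring all 3 iHep arrays above background left 96 higher and 28 lower genes. Quantile scaling gave 176 and 39, of which 172 and 35 were shared with the main choice, and the authors' table gave 177 and 37, with 173 and 35 shared. Centring gave 190 and 35, every detected probe passing gave 168 and 26, and keeping outlier spots gave 191 and 35. limma with the spread of the MEF samples alone called 0 genes in both contrasts after adjustment, while 176 of the 191 and 32 of the 35 had an unadjusted p under 0.05 in both. Those p-values reuse the differences that chose the genes, with 1 array per type and the spread of 2 MEF samples, and support nothing. The share of higher genes over 4-fold above MEF in hepatocytes was 41.7% when they were chosen at 2-fold and 57.7% at 8-fold. Without each MEF replicate in turn the median position of 4α2 ran from 0.112 to 0.188 on genes higher in hepatocytes and from 0.292 to 0.300 on genes lower there. On the latter it was 0.273 with quantile scaling, 0.273 in the authors' table, 0.273 over genes 8-fold apart and 0.299 with centring. The endothelial list's median difference from 4α1 went from 0.12 to -0.20 with the mean of all probes, and the cause was not tested. Of 360 list medians under alternatives 336 moved by less than the set limit, as did all 120 chromosome medians. No paired analysis was possible because each iHep type has 1 array.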

Other observations

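Immune genes were found among both the lower and the higher genes of 4α2. Icos was 6.33-fold below 4α1 and 25.1-fold below 4α3, and Tnfrsf18 was 7.11-fold and 12.8-fold lower. Cxcr3 and H2-DMb1 were at background in 4α2. Cxcr3 was at least 11.9-fold and 8.56-fold lower there, and H2-DMb1 at least 5.49-fold and 7.13-fold. Other immune genes were higher in 4α2. Clec4e, a receptor of macrophages for damaged cells, had levels of -4.26 in 4α1 and 0.56 in 4α2, 28.3-fold apart, and was at least 112-fold lower in 4α3. It was at background in hepatocytes and on all MEF arrays. Acod1, which makes itaconate in activated macrophages, had -5.07, -2.41 and -5.92 in 4α1, 4α2 and 4α3 (6.32-fold and 11.4-fold) and was at background in both references. Ltb, a cytokine of the lymphotoxin family, had -3.73, 0.48 and -2.83 (18.6-fold and 9.94-fold), with -5.01, -4.39 and -4.21 in MEF and -3.73 in hepatocytes, all well above background. The summed level of 6 macrophage markers was 2.67, 3.96 and 3.81 in 4α1, 4α2 and 4α3 on the log2 scale, with 4, 4 and 3 of them detected. The MEF arrays were above every type, at 5.98, 6.63 and 6.63 with all 6 detected. Of 19 measured macrophage and blood cell genes, 1 was above both types and none below, with median differences of 0.76 and 0.14. The part of macrophage RNA in these differences was not tested.

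Some genes of surface epithelia were higher in 4α2 as well. Car1, a carbonic anhydrase of colon and red cells, had -2.90, 0.76 and -2.94 (12.6-fold over 4α1). Aqp3, a water and glycerol channel of skin and gut, had -4.57, -0.46 and -4.84 (17.3-fold and 20.8-fold). Over 54 intestinal genes the median differences were 0.18 and 0.07, with 2 above both types and 3 below. Upk1b, a protein of bladder lining, ran the other way, at 2.24, -0.69 and 2.52.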
